A study of Homo sapiens with 10 samples.

Results

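The genes described here encode the ligands and receptors of axon guidance: the semaphorins with their plexin and neuropilin receptors, the ephrins with the Eph receptors, the SLITs with the ROBO receptors, and the netrins with DCC and the UNC5 receptors. They were chosen by symbol alone. A row was taken when its symbol was SEMA, PLXN, NRP, EPHA, EPHB, EFNA, EFNB, ROBO, SLIT, NTN or UNC5 followed by 1 or 2 further letters or digits, or was DCC, and had at least 10 counts in at least 2 libraries. That gave 71 genes of the 60898 rows, and all 71 entered the tests with 21063 genes in all. The symbols of 73 rows matched, and SEMA3G and ROBO4 stayed below the count minimum. UNC50, a protein of the Golgi apparatus, and UNC5CL match by spelling and are not netrin receptors, so they are kept apart from the 8 role classes.

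In the developing brain these proteins steer growing axons and migrating cells, attracting some and repelling others, and they also act outside the nervous system in epithelia and blood vessels. Semaphorins bind plexins, and the secreted class 3 semaphorins mostly do so through a neuropilin co-receptor. Ephrins sit on the cell surface and bind Eph receptors, which are tyrosine kinases, so that both the ligand-bearing and the receptor-bearing cell can respond. SLITs repel through ROBO receptors, whereas netrin-1 can attract through DCC and repel through UNC5 receptors.

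The libraries were made from the total RNA of cells labelled as neural progenitor cells (NPCs) of H1, a widely used human embryonic stem cell line whose labelled tissue of origin is the blastocyst. Each of the 5 groups has 2 libraries. WT carries no edit per the labels, and KO1 and KO2 are 2 STAMBP knockout lines. KO+STAMBP and KO+CFLAR are knockout cells labelled as given either STAMBP, a deubiquitinase, or CFLAR, which blocks death receptor signalling at caspase-8. The labels name neither the knockout line that received a construct, nor the promoter that drives it, nor the clonality of the lines. They also leave unsaid whether paired libraries are separate cultures, so p-values reflect the spread between libraries alone, and that spread may be technical.

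Library totals ran from 16495116 to 20832700 counts, and levels are given as counts per 1000000 counts (CPM) after TMM scaling. STAMBP was at 43.3 and 47.1 CPM in WT, 16.9 to 19.5 CPM in the 4 knockout libraries, and 40.4 and 45.2 CPM in KO+STAMBP. The libraries labelled KO+CFLAR had 42.9 and 40.0 CPM of STAMBP, with CFLAR at 31.3 and 29.4 CPM, against 34.1 and 30.3 CPM of CFLAR in WT. In the 4 knockout libraries CFLAR was at 246 to 264 CPM, far above every other group. The values of the libraries labelled KO+CFLAR go against that label, and every direction below that uses these libraries carries this limit. Markers of other cell types moved with the knockout. The 19 epithelial and non-neural ectoderm markers summed to 73.6 to 79.0 CPM in WT, 8650 to 9140 CPM in the knockout libraries and 99.6 to 111 CPM in the 4 libraries of the other groups, and 17 of the 19 rose in the knockout against WT while 1 fell. KRT14 and OVOL1 were at 0 in WT, and no epithelial marker was at 0 throughout the knockout. The 21 neuron markers summed to 5210 to 5230 CPM in WT, 897 to 922 CPM in the knockout and 7560 to 7670 CPM in KO+STAMBP and the libraries labelled KO+CFLAR, with 1 rising and 20 falling in the knockout. The 15 progenitor markers summed to 8430 to 8570 CPM in WT, 3510 to 3530 CPM in the knockout and 4810 to 5050 CPM in the 4 libraries of the other groups. Of these markers 2 rose and 12 fell in the knockout, where SOX1 was at 0.479 CPM against 147 CPM in WT, while PAX6 stood at 208 and 181 CPM. The sum of 12 endothelial markers was 51.3 to 54.7 CPM in the knockout and 15.1 to 17.7 CPM in WT. Of the 9 tested 6 rose and 2 fell, and the highest in the knockout were KDR (25.4 CPM) and EGFL7 (18.2 CPM). For 15 neural crest and mesenchyme markers the sum was 2190 to 2270 CPM in the knockout and 140.0 to 146 CPM in WT. Of the 12 tested 8 rose and 3 fell. COL1A1 and COL1A2 were the highest of the 15 in the knockout, at 1030 and 1040 CPM. DCN went from 19.1 CPM in WT to 0.0726 CPM in the knockout. All 19 genes of a cell cycle list fell in the knockout, where they summed to 375 to 387 CPM against 2400 to 2420 CPM in WT and 1340 to 1560 CPM in the other 4 libraries. The part of these shifts in the results below was not tested, and in RNA from bulk cells a smaller number of cells of a type and less RNA per cell cannot be told apart.

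The genomic sequence before 4 semaphorin genes is shown because these are the class members with the 2 largest rises (SEMA3C, SEMA3E) and the 2 largest falls (SEMA5B, SEMA6D) in the knockout. Each run is the 250 bases before the first start that RefSeq lists on GRCh38.p14, read on the gene's strand from 5′ to 3′, with CG dinucleotides in capitals. SEMA3C lies on the minus strand (chr7:80922390-80922639), as do SEMA3E (chr7:83649140-83649389) and SEMA5B (chr3:123028606-123028855), and SEMA6D lies on the plus strand (chr15:47183839-47184088).
SEMA3C: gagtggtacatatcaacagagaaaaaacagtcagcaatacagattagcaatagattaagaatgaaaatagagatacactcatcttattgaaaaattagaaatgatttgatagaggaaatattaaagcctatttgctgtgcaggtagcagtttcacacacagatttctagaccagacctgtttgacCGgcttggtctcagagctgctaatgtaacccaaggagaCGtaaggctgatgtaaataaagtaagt
SEMA3E: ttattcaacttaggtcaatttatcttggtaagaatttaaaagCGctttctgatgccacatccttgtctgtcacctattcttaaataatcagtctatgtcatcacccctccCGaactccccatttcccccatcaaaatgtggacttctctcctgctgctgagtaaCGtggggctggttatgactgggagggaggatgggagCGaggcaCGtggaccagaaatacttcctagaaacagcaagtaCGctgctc
SEMA5B: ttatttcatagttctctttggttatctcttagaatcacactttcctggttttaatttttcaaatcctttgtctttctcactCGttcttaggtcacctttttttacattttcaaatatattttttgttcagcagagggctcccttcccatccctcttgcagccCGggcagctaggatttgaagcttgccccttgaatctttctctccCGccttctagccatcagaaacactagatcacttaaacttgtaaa
SEMA6D: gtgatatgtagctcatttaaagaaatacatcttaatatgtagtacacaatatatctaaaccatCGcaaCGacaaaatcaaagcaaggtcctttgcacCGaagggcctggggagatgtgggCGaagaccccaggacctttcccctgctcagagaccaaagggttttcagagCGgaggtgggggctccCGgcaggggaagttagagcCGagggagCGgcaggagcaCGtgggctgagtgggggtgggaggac
The windows hold 2, 6, 3 and 9 CG dinucleotides in that order, and 36.4%, 46.4%, 39.2% and 53.6% of their bases are G or C. All 4 are below the median of the 60 members with a RefSeq window, which was 66.0% GC against 58.0% over all 27305 windows. The 21 matched members that rose in the knockout had a median of 70.0% GC and the 35 that fell 64.4%, so the 2 risers shown are not typical of that group. Both strands of the windows were searched for the AP-2 motif GCCNNNGGC, which 30.0% of members and 19.7% of all windows hold, the AP-1 motif TGANTCA (1.67% and 6.6%) and the E2-box CACCTG (13.3% and 17.5%). The grainyhead-type motif AACCGGTT and the NF-kB-type motif GGACTTTCC were in 0.0% of member windows, against 0.106% and 0.337% of all. None of the 5 motifs occurs in the 4 windows shown. A match is a description of letters, not of a bound site.

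The first comparison asked how these genes differed between the knockout lines and WT. Against WT, 67 of the 71 were called in the knockout (94.4%), 23 of them higher and 44 lower, and the largest falls were 284-fold in DCC, 145-fold in SLIT1 and 141-fold in EPHA3. Calls were made where edgeR's quasi-likelihood test gave an adjusted p (Benjamini-Hochberg) under 0.05. The background is high, since 76.2% of all tested genes were called, 36.8% higher and 39.4% lower. Among genes with a mean of at least 2 CPM, 84.8% were called against 95.6% of the 68 members above that level. The members' median log2 change was -0.94, against -0.04 over all genes. Of the called members 16 were at least 2-fold higher and 35 at least 2-fold lower. Over all 21063 tested genes these counts were 4209 and 5070. Each line alone gave 68 calls for KO1 (background 72.9%) and 66 for KO2 (73.1%). The knockout and WT libraries did not overlap for 68 of the 71 members, and the share over all genes was not counted. Ligands and receptors differed in their counts: of 36 ligands 15 rose and 18 fell, with a median of -0.39, and of 33 receptors 7 rose and 26 fell, with a median of -1.49. This difference between ligands and receptors was not tested.

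**Figure D1:**
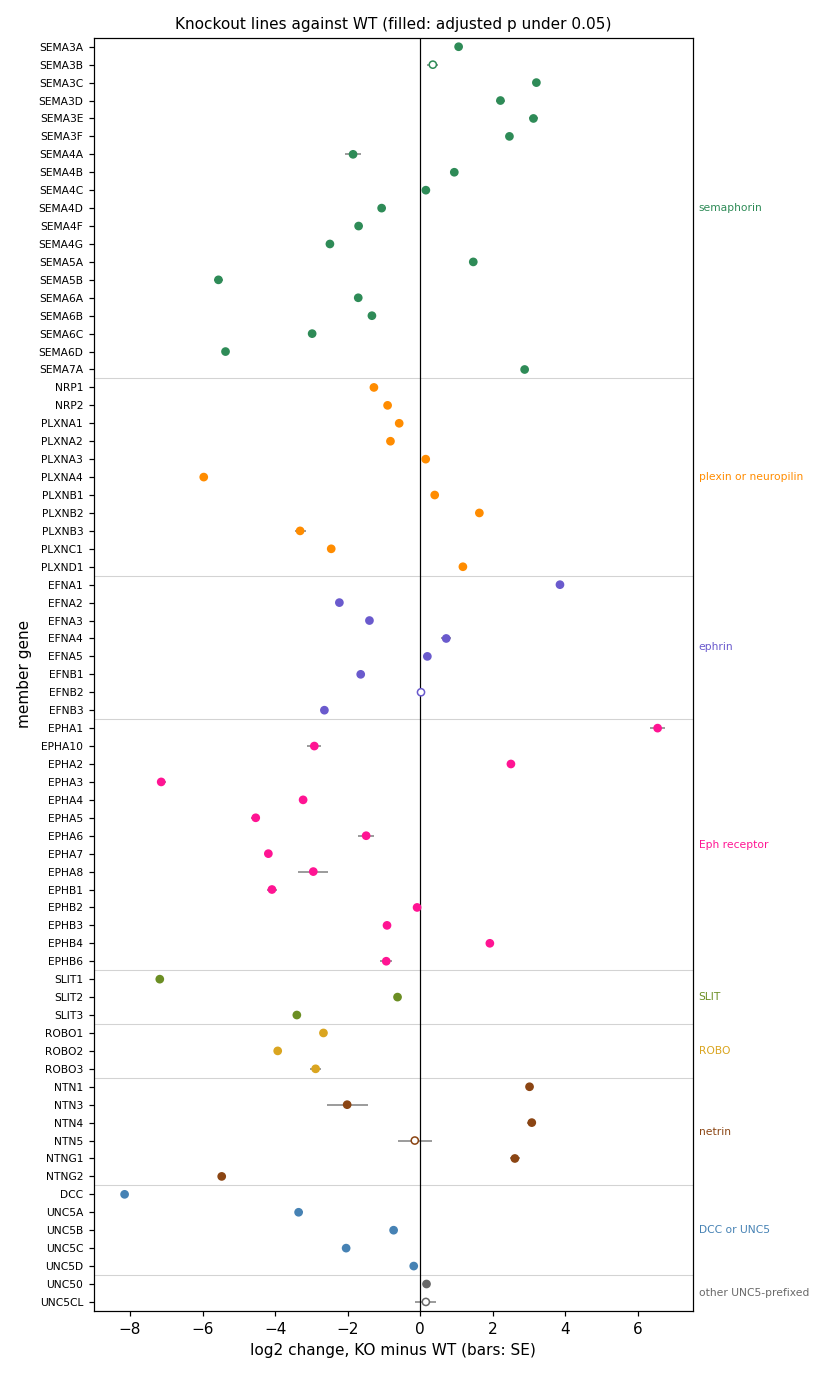
Log2 change of each of the 71 genes in the knockout against WT (x axis) with its standard error, grouped by role class; filled points were called and open points were not. The SLIT, ROBO, DCC and UNC5 points all lie left of 0, whereas 9 semaphorins were called on each side.

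Levels between genes were compared per kilobase of exon. In WT the highest of the class members were EFNB2 at 81.2 CPM per kb, EFNB1 at 67.1, ROBO1 at 51.5, SLIT1 at 35.8, PLXNB2 at 35.2 and DCC at 33.0. In the knockout PLXNB2 led at 109 CPM per kb, followed by EFNB2 at 82.4 and EPHA2 at 67.1. ROBO1 was then at 8.09 CPM per kb, and SLIT1 and DCC were at 0.249 and 0.114. EFNB2 was thus among the most abundant in both groups, and SLIT1 and DCC in WT but not in the knockout.

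The 19 semaphorins divided evenly, with 9 higher and 9 lower in the knockout and 1 not called. Of the 6 secreted class 3 semaphorins, 5 rose and 1 (SEMA3B) was not called, at an edgeR adjusted p of 0.0545. SEMA3B was called higher with RLE factors and with at least 50 counts in 2 libraries. In KO1 against WT all 6 were called higher. All 4 class 6 semaphorins, which span the membrane, fell. Of 6 class 4 semaphorins 2 rose and 4 fell, SEMA5A rose and SEMA5B fell, and the lipid-anchored SEMA7A rose. One of the 9 rises, SEMA4C, is small and turned to -0.02 when libraries were scaled by library size alone, and without the second WT library it was 0.10 and not called.

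SEMA3C (ENSG00000075223, chromosome 7, 80742538 to 80922359, GRCh38) guides cortical axons and cardiovascular precursors. Its level was 9.82 and 10.7 CPM in WT, 96.5 and 91.6 in KO1, 94.0 and 95.6 in KO2, 45.9 and 45.1 in KO+STAMBP, and 45.8 and 39.4 in the libraries labelled KO+CFLAR. All 4 knockout libraries were above all others, and the log2 change against WT was 3.20 ± 0.08 (SE, adjusted p = 2.36e-14). The KO+STAMBP and labelled KO+CFLAR libraries stayed between the knockout and WT without overlap. SEMA3E, which signals through plexin D1, was at 3.20 and 3.62 CPM in WT, 31.1 and 29.2 in KO1, 29.8 and 29.01 in KO2, 2.42 and 2.67 in KO+STAMBP, and 3.21 and 2.49 in the libraries labelled KO+CFLAR. Its log2 change was 3.12 ± 0.12 (adjusted p = 6.26e-12), with the knockout libraries above all others. KO+STAMBP was below both WT libraries and those labelled KO+CFLAR overlapped them, and neither difference from WT was called. SEMA3A, the classical growth cone collapse factor, changed less: 80.2 and 86.2 CPM in WT, 175 and 173 in KO1, 168 and 177 in KO2, 114 and 108 in KO+STAMBP, and 109.8 and 111 in the libraries labelled KO+CFLAR. Its log2 change was 1.06 ± 0.04. SEMA3F and SEMA3D, 2 other secreted members, had log2 changes of 2.46 ± 0.06 and 2.21 ± 0.14, and SEMA7A of 2.88 ± 0.06.

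SEMA5B (ENSG00000082684, chromosome 3, 122909082 to 123028605, GRCh38), a transmembrane semaphorin with thrombospondin repeats, was at 82.0 and 93.5 CPM in WT, 3.19 and 2.02 in KO1, 0.925 and 1.61 in KO2, 69.0 and 70.01 in KO+STAMBP, and 76.5 and 81.6 in the libraries labelled KO+CFLAR. The log2 change was -5.56 ± 0.11 (adjusted p = 4.08e-15), with no overlap between knockout and any other library. SEMA6D, which binds plexin A1, was at 128 and 120.1 CPM in WT, 3.08 and 3.65 in KO1, 3.10 and 2.31 in KO2, 97.5 and 91.3 in KO+STAMBP, and 95.4 and 94.1 in the libraries labelled KO+CFLAR. Its log2 change was -5.37 ± 0.08 (adjusted p = 8.58e-17). SEMA6A, a ligand of plexins A2 and A4 and the semaphorin of highest mean CPM, was at 361 and 354 CPM in WT, 114 and 108 in KO1, 106 and 109 in KO2, 204 and 199.9 in KO+STAMBP, and 194 and 195 in the libraries labelled KO+CFLAR. It had a smaller log2 change, -1.71 ± 0.03, and its other libraries lay between knockout and WT. SEMA4C, a plexin B2 ligand, was nearly level at 94.5 and 87.6 CPM in WT and 97.7 to 104 CPM in the knockout, 0.15 ± 0.05 on the log2 scale. SEMA5A was at 23.7 and 24.7 CPM in WT and 62.5 to 69.2 CPM in the knockout, a log2 change of 1.46 ± 0.07.

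Of the 9 plexins and 2 neuropilins, 4 rose and 7 fell, with a median of -0.82. The risers were PLXNB2, PLXND1, PLXNB1 and PLXNA3, and PLXNA3 turned to -0.03 when scaled by library size alone and was not called without the first WT library (0.09). PLXNB2 (ENSG00000196576, chromosome 22, 50274979 to 50307627, GRCh38), a receptor of class 4 semaphorins that acts in many epithelia as well as in neural progenitors, was at 255 and 255 CPM in WT, 798 and 767 in KO1, 814 and 779 in KO2, 217 and 219 in KO+STAMBP, and 223 and 219.7 in the libraries labelled KO+CFLAR. Its rise was 1.63 ± 0.03 (adjusted p = 3.24e-15). PLXND1, the receptor of SEMA3E and known best from blood vessels, was at 73.0 and 66.9 CPM in WT, 162 and 152 in KO1, 156 and 160.3 in KO2, 164 and 159 in KO+STAMBP, and 169 and 173 in the libraries labelled KO+CFLAR. It rose by 1.18 ± 0.04, with KO+STAMBP overlapping the knockout range and both libraries labelled KO+CFLAR above it. PLXNB1 was at 202 and 199 CPM in WT and 257 to 271 CPM in the knockout, 0.40 ± 0.03 on the log2 scale.

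PLXNA4 (ENSG00000221866, chromosome 7, 132123332 to 132648688, GRCh38), a receptor for class 3 semaphorins with neuropilins and for SEMA6A, had the largest fall among receptors of semaphorins. It was at 202 and 189 CPM in WT, 3.35 and 3.12 in KO1, 2.58 and 3.35 in KO2, 151 and 145 in KO+STAMBP, and 192 and 176 in the libraries labelled KO+CFLAR. The log2 change was -5.97 ± 0.07 (adjusted p = 2.2e-17). PLXNB3 was at 16.6 and 19.4 CPM in WT and 1.52 to 2.15 CPM in the knockout (-3.31 ± 0.15), and 20.4% of its exon length is shared with SRPK3 on the same strand, so some of its reads may belong to that gene. PLXNA1 and PLXNA2, with log2 changes of -0.58 ± 0.04 and -0.82 ± 0.04, fell by less. The co-receptors fell as well. NRP2 was at 282 and 272 CPM in WT and 146 to 150.4 CPM in the knockout (-0.90 ± 0.03). NRP1, named here after its values were seen, was at 45.3 and 45.8 CPM and 18.1 to 19.6 CPM (-1.28 ± 0.06).

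**Figure D2:**
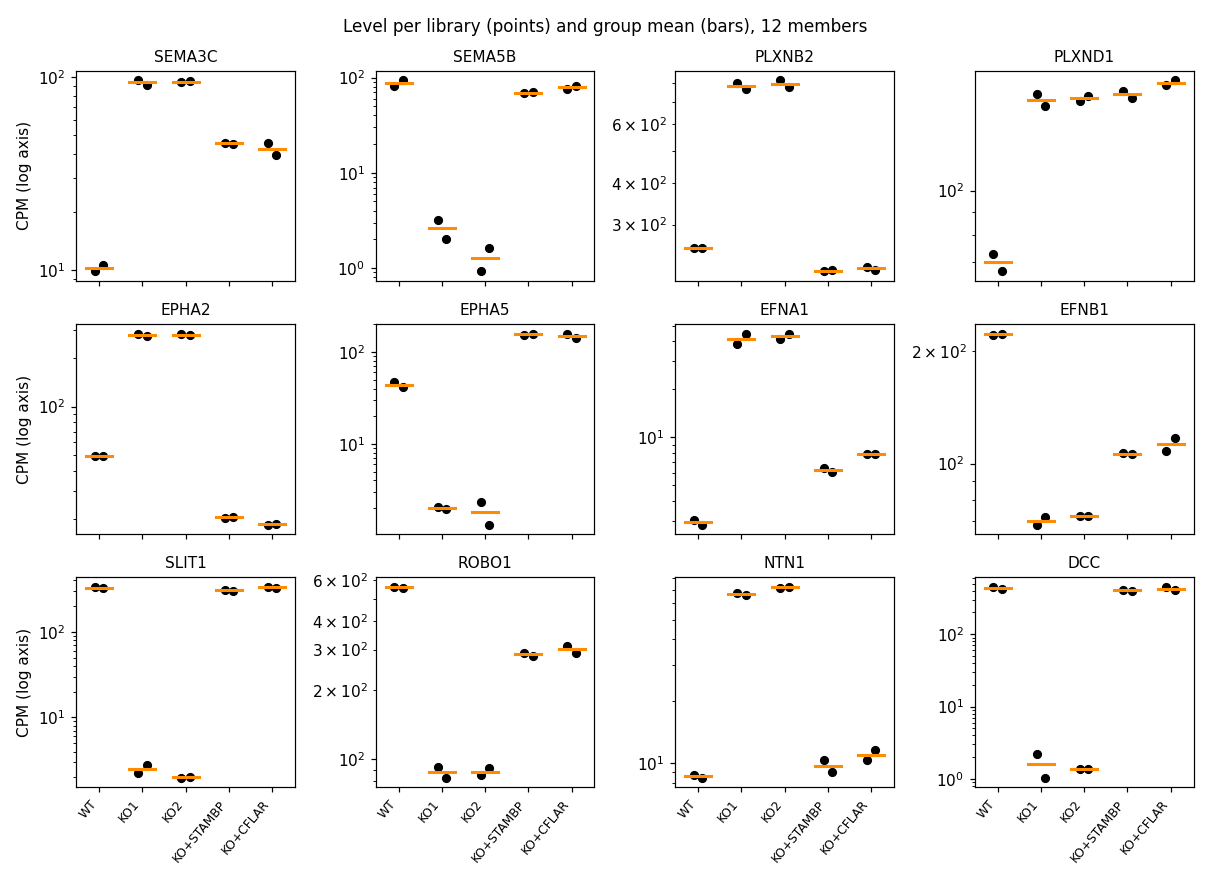
Level in each library (points, CPM on a log axis that differs between panels) and the group mean (bars) for 12 of the genes in the 5 groups. SEMA3C, EFNA1, EPHA2 and NTN1 are highest in KO1 and KO2, whereas SEMA5B, SLIT1 and DCC are lowest there.

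Of the 8 ephrins, 3 rose, 4 fell and EFNB2 was not called. The GPI-anchored A ephrins had 3 risers (EFNA1, EFNA4 and EFNA5) and 2 that fell, though EFNA5 was at 0.02 and not called when scaled by library size alone. Of the membrane-spanning B ephrins, 2 of 3 fell. EFNA1 (ENSG00000169242, chromosome 1, 155127460 to 155134857, GRCh38), the main ligand of EPHA2 in epithelia, was at 3.02 and 2.83 CPM in WT, 38.4 and 44.7 in KO1, 41.2 and 44.8 in KO2, 6.39 and 6.09 in KO+STAMBP, and 7.86 and 7.79 in the libraries labelled KO+CFLAR. Its rise of 3.85 ± 0.11 (adjusted p = 2.73e-13) set all knockout libraries above all others. EFNB1 was at 222 and 223 CPM in WT, 68.6 and 71.9 in KO1, 72.2 and 72.4 in KO2, 106 and 106 in KO+STAMBP, and 108 and 117 in the libraries labelled KO+CFLAR. Its log2 change was -1.64 ± 0.04, and the other groups lay between. EFNB3, the ephrin of the ventral midline, went from 93.9 and 98.5 CPM to 14.4 to 16.2 CPM (-2.64 ± 0.05), and EFNA2 from 19.9 and 20.8 CPM to 3.98 to 4.51 CPM (-2.23 ± 0.09).

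EFNB2, the ligand of EPHB4 in vessels and of several Eph receptors in brain, was at 415 and 400.5 CPM in WT and 406 to 422 CPM in the knockout, with overlapping libraries. Its log2 difference was 0.02 ± 0.03 (adjusted p = 0.558) and turned to -0.16 when scaled by library size alone. A gene on the opposite strand covers 26.2% of its exon length, and how the counting treated strand is not known here. EFNA5 was at 85.1 and 85.4 CPM in WT and 96.1 to 99.96 CPM in the knockout, a log2 change of 0.20 ± 0.04. EFNA4 was at 7.15 and 5.96 CPM and 10.2 to 12.04 CPM (0.71 ± 0.14).

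Most Eph receptors fell, with 11 of 14 lower, 3 higher and a median of -2.21. Of 9 EphA receptors 7 fell, and of 5 EphB receptors 4 fell. The 3 that rose were EPHA1, EPHA2 and EPHB4. EPHA1 (ENSG00000146904, chromosome 7, 143390289 to 143408892, GRCh38), a receptor best known from epithelia, was at 0.174 and 0.440 CPM in WT, 28.5 and 31.4 in KO1, 31.9 and 29.4 in KO2, 0.155 and 0.320 in KO+STAMBP, and 0.186 and 0.136 in the libraries labelled KO+CFLAR. Near its detection limit in the 6 libraries outside the knockout, it had the largest rise of the 71 genes, 6.54 ± 0.21 (adjusted p = 7.79e-13). EPHA2 (ENSG00000142627, chromosome 1, 16124337 to 16156087, GRCh38), the partner of EFNA1, was at 49.2 and 49.5 CPM in WT, 284 and 272 in KO1, 281 and 279 in KO2, 20.4 and 20.7 in KO+STAMBP, and 18.6 and 18.6 in the libraries labelled KO+CFLAR, a rise of 2.50 ± 0.04 (adjusted p = 2.4e-16). EPHB4 went from 51.7 and 52.7 CPM to 194 to 199.8 CPM, 1.92 ± 0.05 on the log2 scale.

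EPHA3 (ENSG00000044524, chromosome 3, 89107524 to 89482134, GRCh38), a receptor of A ephrins in retinal and motor axons, was at 59.3 and 53.7 CPM in WT, 0.330 and 0.391 in KO1, 0.396 and 0.461 in KO2, 37.4 and 36.9 in KO+STAMBP, and 49.97 and 44.8 in the libraries labelled KO+CFLAR. It was nearly absent from every knockout library, a change of -7.14 ± 0.12 (adjusted p = 8e-16). EPHA5 (ENSG00000145242, chromosome 4, 65319563 to 65670495, GRCh38), which shapes topographic maps, was at 46.7 and 41.5 CPM in WT, 2.04 and 1.95 in KO1, 2.31 and 1.33 in KO2, 154 and 157 in KO+STAMBP, and 159 and 143 in the libraries labelled KO+CFLAR. The knockout was lowest, -4.54 ± 0.12 against WT (adjusted p = 6.38e-14), and the other 4 libraries were all above WT. EPHA7 went from 71.1 and 64.0 CPM in WT to 3.12 to 4.10 CPM in the knockout (-4.19 ± 0.09), EPHB1 changed by -4.09 ± 0.15 and EPHA4 changed by -3.23 ± 0.06. EPHB3 was at 55.5 and 52.8 CPM and 26.1 to 29.8 CPM (-0.92 ± 0.07). EPHB2, at 114 and 113 CPM and 105 to 109.5 CPM, was called with a change of only -0.09 ± 0.04, and the call was lost under 8 alternatives, among them DESeq2 and leaving out either WT library, either KO2 library or the second KO1 library.

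All 3 SLITs and all 3 ROBOs fell. SLIT1 (ENSG00000187122, chromosome 10, 96998038 to 97185920, GRCh38), a repellent of forebrain axons, was at 329 and 323 CPM in WT, 2.25 and 2.80 in KO1, 1.98 and 2.02 in KO2, 306 and 302 in KO+STAMBP, and 335 and 326 in the libraries labelled KO+CFLAR, a change of -7.18 ± 0.05 (adjusted p = 3.87e-19). SLIT3 went from 27.9 and 27.6 CPM to 2.47 to 2.97 CPM (-3.40 ± 0.09). SLIT2 fell far less, from 108 and 107 CPM to 67.0 to 71.8 CPM (-0.63 ± 0.04). Among the receptors, ROBO1 (ENSG00000169855, chromosome 3, 78597240 to 79767815, GRCh38) was at 563 and 557 CPM in WT, 92.2 and 83.1 in KO1, 85.1 and 91.5 in KO2, 291 and 282 in KO+STAMBP, and 312 and 291 in the libraries labelled KO+CFLAR. The log2 change was -2.67 ± 0.04 (adjusted p = 2.82e-16), and the other groups lay between knockout and WT, without overlap. ROBO2 was at 239.6 and 223 CPM in WT, 15.4 and 14.7 in KO1, 16.4 and 14.2 in KO2, 98.9 and 92.4 in KO+STAMBP, and 123 and 114 in the libraries labelled KO+CFLAR. Its log2 change was -3.93 ± 0.06. ROBO3, which sets the crossing of commissural axons, went from 18.8 and 19.7 CPM to 1.98 to 3.35 CPM (-2.88 ± 0.15).

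The 6 netrins had risers and fallers, and their receptors fell. NTN1, NTN4 and NTNG1 rose, NTNG2 and NTN3 fell and NTN5 was not called, while DCC and all 4 UNC5 receptors fell. The call of NTN3 was lost without the first WT library (-1.59). NTN1 (ENSG00000065320, chromosome 17, 9021542 to 9244000, GRCh38), the secreted ligand of DCC, was at 8.72 and 8.45 CPM in WT, 67.3 and 65.9 in KO1, 71.5 and 72.4 in KO2, 10.4 and 9.03 in KO+STAMBP, and 10.4 and 11.5 in the libraries labelled KO+CFLAR, a rise of 3.01 ± 0.07 (adjusted p = 3.8e-14). NTN4, a basement membrane netrin that binds laminin, was at 3.90 and 2.93 CPM in WT and 27.4 to 29.4 CPM in the knockout (3.07 ± 0.13). The 2 netrin-G proteins, membrane-anchored and bound by other partners than DCC, went opposite ways. NTNG1 went from 2.96 and 2.98 CPM to 17.1 to 19.5 CPM (2.61 ± 0.14) and NTNG2 from 86.3 and 86.8 CPM to 1.52 to 2.48 CPM (-5.47 ± 0.07).

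DCC (ENSG00000187323, chromosome 18, 52340172 to 53535903, GRCh38) had the largest fall of the 71 genes. Its level was 450.2 and 418 CPM in WT, 2.20 and 1.04 in KO1, 1.39 and 1.38 in KO2, 407 and 397 in KO+STAMBP, and 453 and 404 in the libraries labelled KO+CFLAR. The log2 change of -8.15 ± 0.10 (adjusted p = 1.27e-17) is a 284-fold difference, and no knockout library came near the others. UNC5A was at 20.3 and 23.3 CPM in WT, 1.71 and 2.28 in KO1, 2.25 and 2.37 in KO2, 60.3 and 59.9 in KO+STAMBP, and 54.8 and 58.5 in the libraries labelled KO+CFLAR, lowest in the knockout (-3.35 ± 0.11). UNC5C went from 66.4 and 63.0 CPM to 14.2 to 17.4 CPM (-2.04 ± 0.08). UNC5D was at 51.9 and 47.1 CPM and 42.5 to 44.8 CPM, a change of -0.18 ± 0.06 that was not called without the first WT library (-0.12) or by DESeq2 (-0.16).

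**Figure D3:**
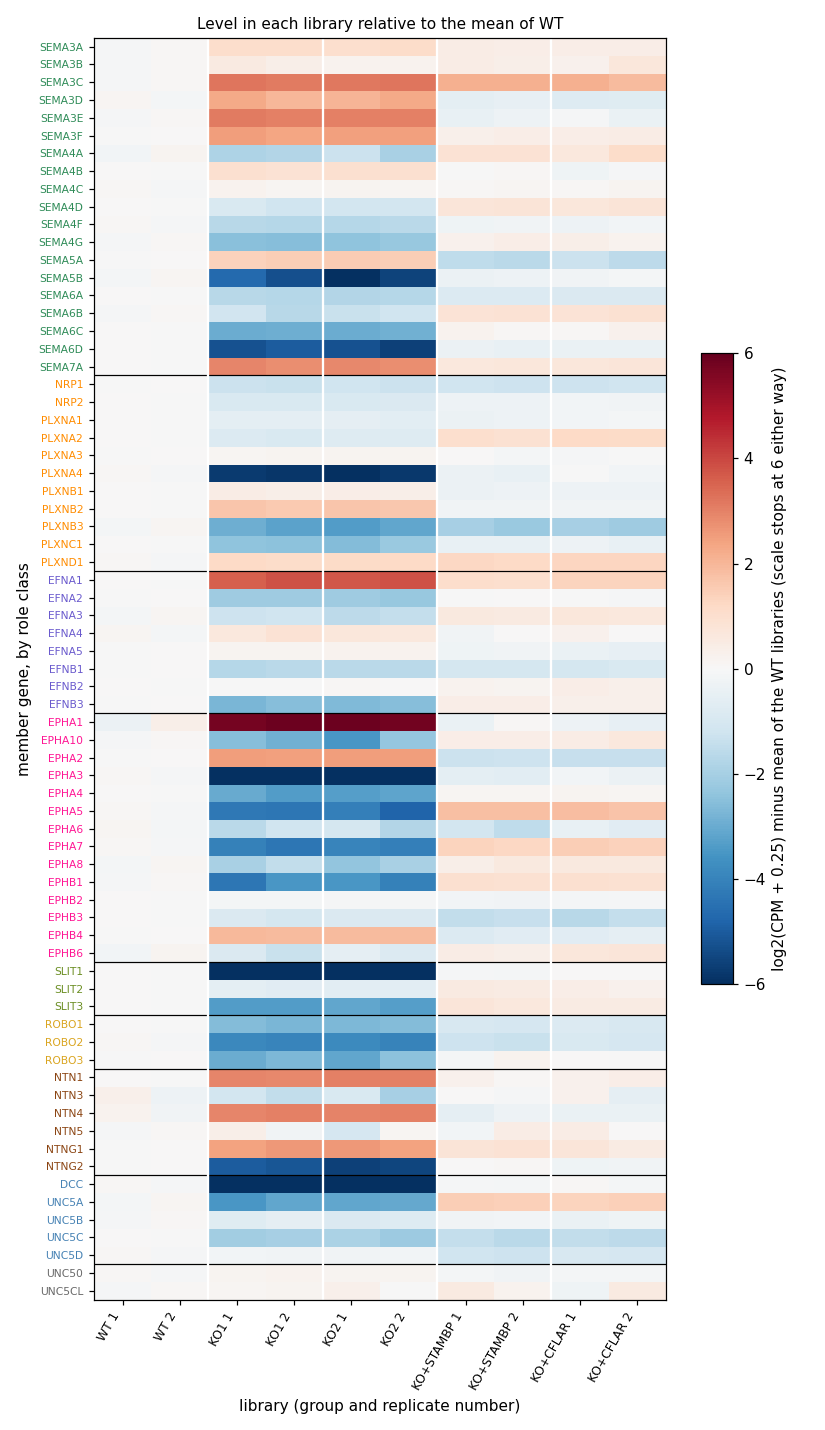
Each row is 1 of the 71 genes and each column 1 library; colour gives log2(CPM + 0.25) minus the mean of the WT libraries, from blue (lower) to red (higher). KO1 and KO2 form a shared block, and the last 4 columns are close to WT for DCC and SLIT1 but not for EPHA5, EPHA2, SEMA3C or PLXND1.

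The 2 knockout lines were compared with each other next. In edgeR 0 of 71 members were called between KO1 and KO2, with 0.157% of all genes called, and DESeq2 called 0 members. At an unadjusted p under 0.05 there were 3 members (4.23%), against 5.68% of all tested genes. These were SEMA5B, NTNG2 and EFNA3. SEMA5B had the largest of the differences at 1.03 ± 0.32 (edgeR adjusted p = 0.628). With no filter on low counts SEMA5B was called, the only member under that alternative.

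Against the knockout, 63 members were called in KO+STAMBP, 40 higher and 23 lower, and 65 in the libraries labelled KO+CFLAR, 42 higher and 23 lower. The background is 77.9% and 78.0% of all genes. Median log2 differences were 0.58 and 0.72, against 0.04 over all genes in both comparisons. These comparisons share the knockout libraries with each other and with the comparison against WT, so each is given for its own values. DCC was higher than in the knockout by 8.04 ± 0.10 and 8.13 ± 0.10, SLIT1 by 7.08 ± 0.05 and 7.20 ± 0.05, and EPHA3 by 6.54 ± 0.14 and 6.89 ± 0.13. EPHA1 was lower (-6.96 ± 0.22 and -7.50 ± 0.23), and so was EPHA2 (-3.76 ± 0.04 and -3.91 ± 0.04). NRP1 was not called in either comparison: it stood at 19.8 and 19.2 CPM in KO+STAMBP and 19.0 and 19.9 CPM in the libraries labelled KO+CFLAR, beside 18.1 to 19.6 CPM in the knockout. PLXND1 was not called in KO+STAMBP (0.03 ± 0.04, adjusted p = 0.453; 0.25 and called when scaled by library size alone) and was slightly higher in the libraries labelled KO+CFLAR (0.12 ± 0.04, adjusted p = 0.0156), a call lost by DESeq2 and without the second of these libraries (0.10).

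How far the 4 libraries stood from WT was the next question. Of the 71 members, 48 (67.6%) differed from WT in KO+STAMBP, 21 higher and 27 lower, and 49 (69.0%) in the libraries labelled KO+CFLAR, 25 higher and 24 lower. The background is 34.9% of all tested genes for KO+STAMBP (16.4% higher, 18.5% lower) and 33.7% for the libraries labelled KO+CFLAR (15.8% higher, 17.9% lower). With a mean of at least 2 CPM, 70.6% and 72.1% of members were called, against 44.1% and 42.7% of all genes at that level. The medians of -0.04 and -0.05 hide departures both ways. In KO+STAMBP 6 called members were at least 2-fold above WT and 10 at least 2-fold below. In the libraries labelled KO+CFLAR these counts were 7 and 6. Over all 21063 tested genes the counts were 740 and 793 in KO+STAMBP. They were 689 and 769 in the libraries labelled KO+CFLAR. The 2 comparisons share the WT libraries. The cell cycle list, lower in all 19 of its genes in both comparisons, the progenitor list, of which 10 of 15 genes were lower and 2 higher in both, and the neuron list, of which 14 and 13 of 21 genes were higher, moved beside these differences, and their part was not tested.

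**Figure D4:**
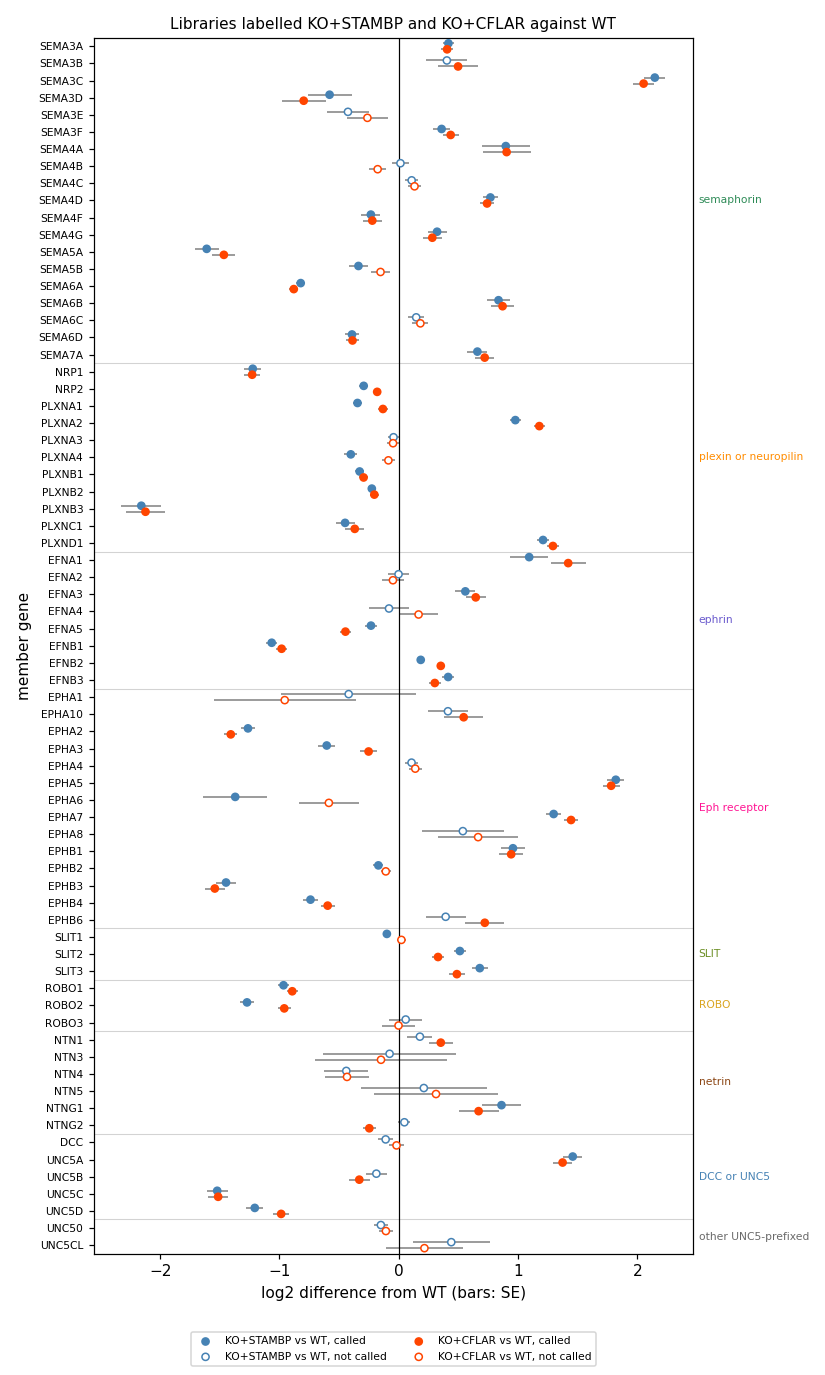
Log2 difference from WT with its standard error for each of the 71 genes, in KO+STAMBP (blue) and those labelled KO+CFLAR (orange); filled points were called. SEMA3C and EPHA5 lie farthest to the right in both, followed by UNC5A in KO+STAMBP and by EPHA7 in those labelled KO+CFLAR. PLXNB3, SEMA5A, UNC5C and EPHB3 lie farthest to the left.

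Some receptors that fell in the knockout were above WT in these libraries, and so were some ligands. Where a pair of values or differences follows, KO+STAMBP comes first and the labelled KO+CFLAR libraries second. EPHA5 in KO+STAMBP was higher than in WT by 1.82 ± 0.07, and the libraries labelled KO+CFLAR by 1.78 ± 0.07 (adjusted p = 1.83e-10 and 2.06e-10). EPHA7 was at 172 and 159 CPM in the former and 189.7 and 177 CPM in the latter, above WT by 1.30 ± 0.06 and 1.44 ± 0.06. UNC5A was above WT by 1.46 ± 0.08 and 1.37 ± 0.08. PLXNA2, a receptor of SEMA6A, was at 119.5 and 118 CPM in WT, 62.0 to 70.4 CPM in the knockout, 241 and 226 CPM in KO+STAMBP and 275 and 262 CPM in the libraries labelled KO+CFLAR. That is 0.98 ± 0.05 and 1.18 ± 0.05 above WT. EPHB1 was above it by 0.96 ± 0.10 and 0.94 ± 0.10. For none of these 5 receptors did the WT libraries overlap the 4 others. Among ligands that fell in the knockout, SEMA4D was above WT by 0.77 ± 0.06 and 0.74 ± 0.06, and SLIT3 by 0.68 ± 0.07 and 0.49 ± 0.07. Of all 36 ligands, 15 were above WT and 9 below in KO+STAMBP, and 17 and 8 in the libraries labelled KO+CFLAR. Of all 33 receptors these counts were 6 and 18, and 8 and 16.

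A further set stayed on the knockout's side of WT. SEMA3C was above WT by 2.15 ± 0.09 and 2.05 ± 0.09 (adjusted p = 2.65e-10 and 3.64e-10), PLXND1 by 1.21 ± 0.05 and 1.29 ± 0.05, and EFNA1 by 1.09 ± 0.16 and 1.42 ± 0.15. On the low side, PLXNB3 was at 4.38 and 3.69 CPM in KO+STAMBP and 4.37 and 3.90 CPM in the labelled KO+CFLAR pair, with log2 differences from WT of -2.16 ± 0.17 and -2.12 ± 0.17. UNC5C was at 23.9 and 21.1 CPM and, in the latter, 23.4 and 21.9 CPM, with log2 differences of -1.52 ± 0.09 and -1.51 ± 0.09. NRP1 differed by -1.22 ± 0.07 and -1.23 ± 0.07, ROBO1 by -0.97 ± 0.05 and -0.89 ± 0.05, ROBO2 by -1.27 ± 0.06 and -0.96 ± 0.06, and EFNB1 by -1.06 ± 0.04 and -0.98 ± 0.04. EPHB3 was below the knockout as well, at 19.1 and 20.6 CPM in the former and 17.0 and 20.2 CPM in the latter, which is -0.53 ± 0.08 and -0.62 ± 0.08 against the knockout and -1.45 ± 0.09 and -1.54 ± 0.09 against WT.

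Some genes raised in the knockout were below WT in these libraries, among them EPHA2, SEMA5A and EPHB4, and also SEMA3D (-0.58 ± 0.18 and -0.80 ± 0.18), EFNA5 (-0.23 ± 0.05 and -0.45 ± 0.05), PLXNB1 (-0.33 ± 0.04 and -0.29 ± 0.04) and PLXNB2 (-0.23 ± 0.04 and -0.20 ± 0.04). The SEMA3D call in KO+STAMBP was lost by DESeq2 and without the first WT library (-0.46) or either KO+STAMBP library (-0.53 and -0.63). EPHA2 differed from WT by -1.26 ± 0.06 and -1.41 ± 0.05 (adjusted p = 4.12e-10 and 1.4e-10). SEMA5A was at 8.14 and 7.69 CPM in KO+STAMBP and 9.68 and 7.84 CPM in the libraries labelled KO+CFLAR, -1.61 ± 0.10 and -1.47 ± 0.10 against WT. EPHB4 was at 29.9 and 32.6 CPM in the former and 32.8 and 36.3 CPM in the latter, -0.74 ± 0.06 and -0.60 ± 0.06. UNC5D, which changed little in the knockout, was at 21.7 and 21.1 CPM and, in the latter, 25.7 and 24.2 CPM, -1.21 ± 0.07 and -0.99 ± 0.07. DCC, by contrast, stood near WT, with log2 differences of -0.11 ± 0.06 (adjusted p = 0.192) and -0.02 ± 0.06 (adjusted p = 0.855). The first of these was called with no filter on low counts and in the fit of the compared groups alone. SLIT1 differed by -0.10 ± 0.04 and 0.02 ± 0.04, and its call in KO+STAMBP (adjusted p = 0.0463) was lost under 11 alternatives. EPHA4, SEMA6C, ROBO3, EFNA2 and NTN4 were not called in either comparison, though NTN4 was called in both (-0.64) without the second WT library.

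Between the libraries labelled KO+CFLAR and KO+STAMBP, 8 members were called (11.3%), 6 higher and 2 lower, against 1.09% of all genes. All differences were small, at most 1.28-fold. PLXNA4, ROBO2, EPHA3, PLXNA1, PLXNA2 and EFNB2 were higher in the libraries labelled KO+CFLAR and NTNG2 and EFNA5 lower. PLXNA4 was at 192 and 176 CPM against 151 and 145 CPM in KO+STAMBP, 0.32 ± 0.05 on the log2 scale (edgeR adjusted p = 0.012). ROBO2 was at 123 and 114 CPM against 98.9 and 92.4 CPM (0.31 ± 0.06, adjusted p = 0.022), and the groups did not overlap for either gene. In all, 40 of the 71 members showed no overlap between these groups, and the share over all genes was not counted. This number is therefore not read as a difference between the groups. Most of these 40 were not among the 8 called members. The count fell to 0 without the first library labelled KO+CFLAR or without either KO+STAMBP library, and to 4 without either KO2 library. DESeq2 called 5.

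Beyond the 71 genes, 3 lists of the pathway were described. Of 40 tested related ligands, receptors and co-receptors, 10 rose and 27 fell in the knockout, with a median log2 change of -1.42 against -0.04 over all genes and 76.2% of all genes called. SDC1, a heparan sulfate proteoglycan of epithelia, rose from a mean of 18.3 to 339.5 CPM (4.21 ± 0.05), and the MET receptor rose by 4.50 ± 0.10. CNTN2, an adhesion molecule of axons, went from 241 to 1.14 CPM (-7.72 ± 0.06), and the related CHL1 changed by -6.20 ± 0.07. Of 58 intracellular effectors 23 rose and 30 fell, with a median of -0.15. The collapsin response mediators DPYSL5 and CRMP1 fell, from 493 to 14.6 CPM and from 674 to 34.4 CPM. The actin regulator VASP rose by 2.62 ± 0.07. Of 13 enzymes that process or shed guidance ligands 11 rose and the other two were not called, with a median of 0.92. MMP14, a membrane metalloprotease, rose from 70.5 to 791.5 CPM (3.49 ± 0.04), and FURIN, which cleaves class 3 semaphorins, by 3.09 ± 0.05. In the sum over these 13 enzymes the knockout libraries were at 2290 to 2350 CPM and WT at 714 to 726 CPM, and KO+STAMBP and the libraries labelled KO+CFLAR were at 532 to 556 CPM, below both.

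Members that lie side by side in the genome did not always move together. EFNA4, EFNA3 and EFNA1 follow each other on chromosome 1 (GRCh38, GENCODE release 29), with gaps of 9.32 kb between EFNA4 and EFNA3 and 39.9 kb between EFNA3 and EFNA1. Their log2 changes in the knockout were 0.71 ± 0.14, -1.40 ± 0.09 and 3.85 ± 0.11, so the middle gene fell between 2 that rose. An overlapping gene on the same strand, AL691442.1, shares 44.7% of the exon length of EFNA3 and 15.0% of that of EFNA4, so the reads of these 2 genes are uncertain. EPHA1 and EPHB6 are 519 kb apart on chromosome 7, with changes of 6.54 ± 0.21 and -0.94 ± 0.16. SEMA3B and SEMA3F, 78.5 kb apart on chromosome 3, both had positive changes, 0.35 ± 0.15 (not called) and 2.46 ± 0.06. On chromosome 7, SEMA3E, SEMA3A and SEMA3D lie in that order and all rose, and on chromosome 3 ROBO2 and ROBO1, 947 kb apart, both fell.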

How the data were processed

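The deposited table holds whole-number counts, not normalized, for 60898 rows in 10 RNA-seq libraries. Per the submitters' processing notes the tools were RSEM 1.2.4, fastp 0.20.0 and DESeq2, on GRCh38 (hg38). The annotation, the strand setting and any rounding of RSEM's estimated counts are not given in the sources used here, so reads of overlapping genes on opposite strands cannot be told apart. Exons of 20 members overlap a gene on the opposite strand and those of 6 a gene on the same strand. Of the 71 members, 37 have a locus name that begins with MSTRG.

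Counts were fitted with edgeR 4.0.16 in R 4.3.3 (quasi-likelihood test, TMM factors, filterByExpr, a mean for each of 5 groups, 5 residual degrees of freedom). KO is the mean of the KO1 and KO2 coefficients. p-values were adjusted over all 21063 tested genes by Benjamini-Hochberg, and the standard error (SE) is the size of the log2 change divided by the root of F. CPM uses TMM-scaled library sizes. The fit was tested on simulated data. A level of 3 counts corresponds to 0.144 to 0.182 CPM before TMM scaling, which covers counting error only. The chi-square per gene within a pair of libraries was 1.94 to 3.51, so no library was taken as a duplicate.

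Members, lists and tests were chosen with earlier results of these data known. Some of the genes chosen for description are given with levels for WT and the knockout only. Chosen per role class were the 3 of highest mean CPM. Also chosen were the 2 largest rises and falls in KO vs WT at a mean of at least 2 CPM. Added were members called between KO1 and KO2 or between the libraries labelled KO+CFLAR and KO+STAMBP, and the 3 largest differences each way of each of these groups from WT. Up to 3 rises and 3 falls were taken from each pathway list. Others were named after their values were seen. Alternatives were DESeq2 1.42.0, RLE factors, library size alone, no filter, at least 50 counts in 2 libraries, a replicate block, leaving out each library, fitting the compared groups only and each knockout line as baseline. The fit without both libraries labelled KO+CFLAR was added after seeing the data. Promoter windows come from RefSeq (GRCh38.p14) and matched 60 members. Positions and exon lengths come from GENCODE release 29.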

Additional observations from a re-analysis of the deposited data

Results flagged for a closer look

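The libraries labelled KO+CFLAR differed from KO+STAMBP in 8 members. CFLAR was near its WT level in both groups, and the part of the constructs in these differences cannot be told. The log2 differences were 0.32 for PLXNA4, 0.31 for ROBO2, 0.35 for EPHA3, 0.21 for PLXNA1, 0.20 for PLXNA2 and 0.17 for EFNB2, and -0.29 for NTNG2 and -0.21 for EFNA5. The edgeR adjusted p ran from 0.012 for PLXNA4 to 0.0497 for EFNA5. DESeq2 called 5 members, all of them higher in the libraries labelled KO+CFLAR, where edgeR called 6 higher and 2 lower. The calls of NTNG2 and EFNA5 were among those lost. All calls were lost without the first library labelled KO+CFLAR or without either KO+STAMBP library, where the single library left takes its spread from the other groups. The share called over all genes was then 0.238%, 0.122% and 0.131%, against 1.09% with every library.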

How the results depend on the processing

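Counts of members called against WT or against the knockout stayed within 1.5 times the reported count in all alternatives, for example 63 to 68 for the knockout against WT with 1 library left out. The count between the libraries labelled KO+CFLAR and KO+STAMBP was 5 with DESeq2 and 0 to 7 with 1 library left out. It was 0 without the first library labelled KO+CFLAR, the first or the second KO+STAMBP library, and 4 without either KO2 library. Between the knockout lines, 1 member (SEMA5B) was called with no filter. Scaling by library size alone moved the median log2 change of all genes in the knockout from -0.04 to -0.22, with 41.3% instead of 48.3% of calls higher, and turned EFNB2 to -0.16, PLXNA3 to -0.03, SEMA4C to -0.02 and UNC50 to 0.00 on the negative side. The same replicate number did not pair libraries (correlations of -0.021 to 0.072), and with the replicate block 67 members were called in the knockout against WT and 8 between the libraries labelled KO+CFLAR and KO+STAMBP, with 49 and 48 for these groups against WT. Over all named results and alternatives, 3509 kept direction and side of the threshold, 89 lost the call, 16 gained it and 4 changed sign. Without both libraries labelled KO+CFLAR, 68 members were called in the knockout. The cause of these changes was not tested. Depth limits EPHA1, EPHA8, NTN3 and NTN5, which are at few counts in some groups.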

Other observations

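The 2 genes that matched by symbol but not by the count minimum were near the detection limit in every library. SEMA3G, a class 3 semaphorin known from endothelium, had 1 to 8 counts, and ROBO4, the endothelial ROBO, had 0 to 7 counts. Of the defining endothelial markers, CDH5 had a mean of 0.205 CPM (WT) and 0.696 CPM (knockout) and PECAM1 at 0.619 and 2.43 CPM. KDR, also expressed by other cells, was at 3.35 and 25.4 CPM. Other markers of the list were lower in the knockout: TEK was at 4.08 and 1.2 CPM and CLDN5 at 1.35 and 0.11 CPM.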
